A study of Mus musculus with 9 samples.

Results

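The mRNAs described here encode the oxidative phosphorylation machinery (OXPHOS), and they were taken from an RNA-seq experiment on E14 cells, a wild-type mouse embryonic stem (ES) cell line. Members were the protein-coding rows of the deposited count table whose symbol begins with mt-, Nduf, Uqcr or Atp5, together with Sdha to Sdhd, Cyc1 and the Cox4 to Cox8 genes, and whose counts summed to at least 1000 over the 9 libraries. Of the 20189 rows of the table, 101 were members. They comprised 79 nuclear-encoded subunits, 13 mitochondrially encoded subunits and 9 factors that help to build or accompany the complexes (8 Ndufaf genes and Atp5s). Another 4 rows matched by symbol but had too few counts, with totals of 161 for Cox4i2, 136 for Ndufa4l2, 135 for Cox6a2 and 106 for Cox7b2. The members nearest to the limit were Cox7a1, with 1023 counts, and Atp5s, with 1402.

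The 9 libraries formed 3 groups of 3, namely unstarved cells, cells starved of threonine (Thr-starved) and cells starved of cysteine (Cys-starved). All were wild type and were grown on gelatin with leukemia inhibitory factor. The starved cells were kept for the last 3 h in medium without Thr or without Cys. The labels give no such time for the unstarved cells. Against unstarved cells, an effect of the change of medium therefore cannot be told apart from that of the withdrawal. The labels give the replicates as separate samples and not as separate cultures, so p-values measure only the spread between these samples, which may be technical. All samples are of 1 cell line, starvation was sampled at a single time point, and the comparisons ask how the RNA of the groups differed.

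Libraries held 48763102 to 74962733 counts, from poly(A)-selected RNA read from both ends of each fragment. The 8 ES cell markers (Pou5f1, Sox2, Nanog, Zfp42, Esrrb, Klf4, Dppa5a and Tdgf1) summed to 3907 to 3932 CPM (counts scaled to a common library total) in unstarved, 4137 to 4217 in Thr-starved and 3728 to 3754 in Cys-starved libraries. Markers of primitive endoderm (4 genes) and of fibroblasts (4 genes) summed to at most 8.79 and 12.7 CPM in any library, and the 3 detected trophectoderm markers to at most 110.2 CPM, nearly all of it from Tfap2c and Krt8. The part of these markers in the results below was not tested. In bulk RNA, fewer cells with a transcript and less of it per cell cannot be told apart, and every value is relative to the other RNA of its library.

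The respiratory chain consists of large protein assemblies in the inner mitochondrial membrane. Complex I (NADH dehydrogenase) and complex II (succinate dehydrogenase) pass electrons to ubiquinone, complex III passes them on to cytochrome c, and complex IV (cytochrome c oxidase) hands them to oxygen. The proton gradient built up by complexes I, III and IV drives complex V, the ATP synthase. Most subunits are encoded in the nucleus and imported, whereas a small set, with the catalytic core of complex IV among them, is encoded and translated inside the organelle, so that assembly draws on both genomes. The nuclear genes are known targets of the transcription factors NRF1 and GABP, the latter of the ETS family, and the mitochondrial genes are copied as long polycistronic transcripts that are cut into single mRNAs.

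Reference sequences give the setting of the measurements. The genes mt-Atp8 and mt-Atp6 encode membrane subunits of complex V and share bases on the same strand of the mitochondrial genome (GRCm38, MT:7927-7969, plus strand, 43 bases), where a read cannot be assigned to either gene alone. In the run printed here the capitals mark the start codon of mt-Atp6 and the stop codon of mt-Atp8.

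mt-Atp8 and mt-Atp6: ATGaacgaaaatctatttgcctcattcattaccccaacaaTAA

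For 65 of the 79 nuclear subunits a promoter sequence from RefSeq (GRCm38.p6, 250 bases before to 50 after the start of the gene) was found. The NRF1 motif GCGCANGCG occurred on either strand in 19 of the 65 (29.2%), against 6.25% of all 32851 promoters of that length in the table. The ETS motif CCGGAAG occurred in 15 (23.1%, against 8.86%), and the YY1 motif AAGATGGCG in 6 (9.2%, against 1.4%). The motif TGATGNAAT, bound by ATF4 and CEBP factors, was found in 0 of the 65 and in 0.96% of all promoters. Such matches describe the letters in this window only.

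The promoters of 4 subunits, chosen after their values were seen as mRNAs that moved in either direction, are shown as 250 bases up to the base before the start, all on the minus strand, with motif letters in capitals. Atp5k and Uqcrh fell under Thr starvation, and Ndufs3 and Atp5l were higher. The capitals mark an NRF1 palindrome in Atp5k (chr5:108434400-108434649), an ETS motif in Uqcrh (chr4:116075071-116075320), an ETS motif in Ndufs3 (chr2:90904722-90904971), and an NRF1 and an ETS motif in Atp5l (chr9:44920743-44920992). The full window of 300 bases held 1 ETS motif in Atp5k and 2 each in Ndufs3 and Atp5l, not all of them within the printed bases.
Atp5k: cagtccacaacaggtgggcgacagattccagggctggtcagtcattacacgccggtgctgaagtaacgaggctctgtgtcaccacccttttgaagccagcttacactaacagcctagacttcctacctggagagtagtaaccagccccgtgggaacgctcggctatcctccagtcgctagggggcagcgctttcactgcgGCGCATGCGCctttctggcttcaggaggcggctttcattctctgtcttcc
Uqcrh: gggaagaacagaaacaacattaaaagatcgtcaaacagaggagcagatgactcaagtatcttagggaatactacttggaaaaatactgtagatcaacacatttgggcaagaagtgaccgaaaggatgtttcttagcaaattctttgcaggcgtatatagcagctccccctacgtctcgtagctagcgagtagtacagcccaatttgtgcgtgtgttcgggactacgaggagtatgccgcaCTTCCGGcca
Ndufs3: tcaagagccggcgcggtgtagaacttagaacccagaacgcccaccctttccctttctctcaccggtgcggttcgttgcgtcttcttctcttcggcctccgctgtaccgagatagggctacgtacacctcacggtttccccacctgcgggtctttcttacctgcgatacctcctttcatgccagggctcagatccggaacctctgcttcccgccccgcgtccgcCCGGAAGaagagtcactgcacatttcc
Atp5l: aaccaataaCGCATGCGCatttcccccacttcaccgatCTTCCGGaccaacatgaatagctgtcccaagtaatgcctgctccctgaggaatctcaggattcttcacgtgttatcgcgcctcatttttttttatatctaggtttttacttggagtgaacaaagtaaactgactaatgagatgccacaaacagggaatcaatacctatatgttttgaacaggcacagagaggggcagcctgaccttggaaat
Motifs occurred with either direction of change. NRF1 motifs were present in 6 of 13 matched promoters of subunits called higher under Thr starvation, in 6 of 25 of those called lower and in 7 of 27 of those not called, and ETS motifs in 4, 6 and 5 of them.

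Cys starvation lowered the nuclear OXPHOS mRNAs as a body and by little. Of the 79 nuclear subunits, 56 were called lower and 0 higher at an adjusted p of 0.05 or less (quasi-likelihood F test of edgeR, 3 libraries per group, Benjamini-Hochberg adjustment over 20143 genes). Of all genes tested, 18.8% were called lower and 17.5% higher, 36.3% in all, and among the 11410 genes that averaged 5 CPM or more 30.5% were lower and 24.6% higher. The median log2 fold change over the 79 subunits was −0.13, so that the median level fell by 8.55%, whereas the median of all genes was 0.01. DESeq2 likewise called 0 higher and 56 lower, and at an unadjusted p of 0.05 or less edgeR gave 2 higher and 60 lower. Without the third Cys-starved library 2 were called higher, Ndufs3 and Uqcrfs1.

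Every complex took part in the decrease under Cys starvation. Complex I had 20 of its 36 nuclear subunits called lower, complex II 4 of 4, complex III 7 of 9, complex IV 10 of 14 and complex V 15 of 16. Their median log2 fold changes lay close together, at −0.11, −0.17, −0.14, −0.15 and −0.12. The SD of the log2 fold changes was 0.08 over the 79 subunits, against 0.23 over the 11410 expressed genes. The summed level of the 79 mRNAs was 10223, 10330 and 10226 CPM in the unstarved and 9473, 9538 and 9406 CPM in the Cys-starved libraries, which do not overlap. Once trends with GC content and transcript length were taken out, a setting added after the data had been seen, the median was −0.08, with 37 subunits called lower and 6 higher.

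**Figure D1:**
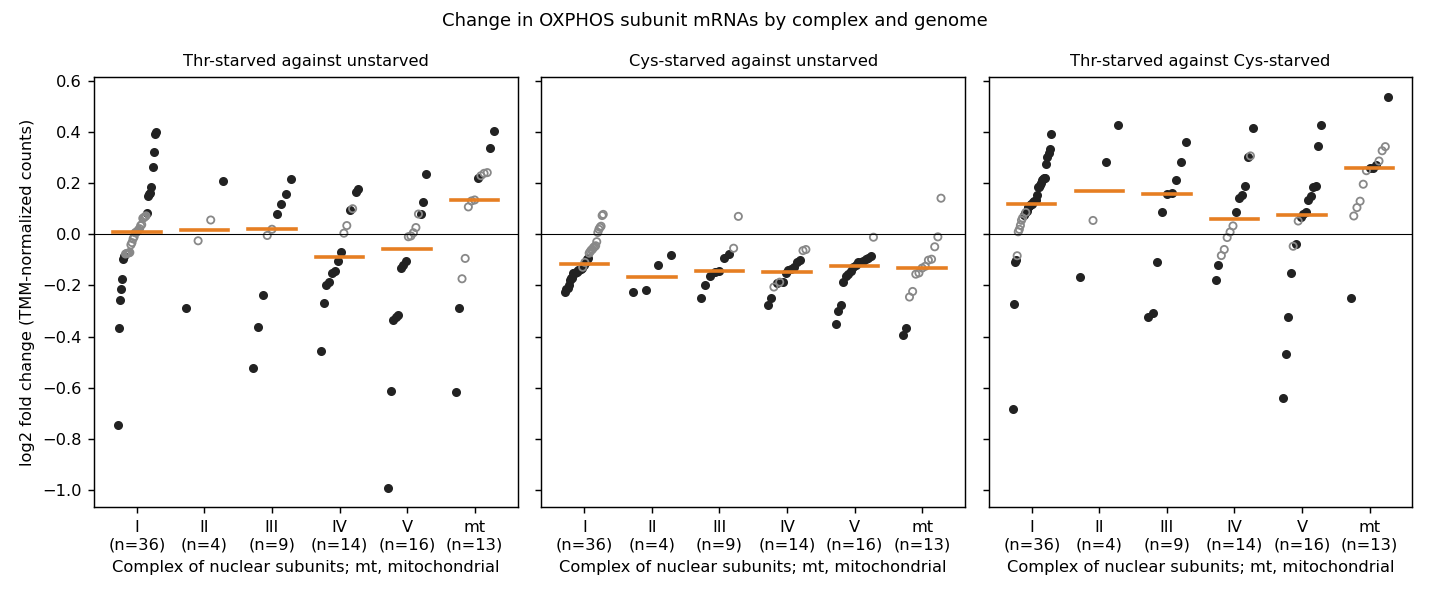
Log2 fold change of each OXPHOS subunit mRNA in the 3 comparisons, for nuclear-encoded subunits by complex (I to V) and for mitochondrially encoded subunits (mt). Filled points were called at an adjusted p of 0.05 or less, open points were not, and orange lines mark medians. The medians of complexes I to V lay between −0.17 and −0.11 under Cys starvation and between −0.09 and 0.02 under Thr starvation. Single nuclear subunits ranged from −0.35 to 0.08 under Cys starvation and from −0.99 to 0.40 under Thr starvation.

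Thr starvation left the median of the nuclear subunits near that of all genes and moved single subunits in both directions. Of the 79, 20 were called higher and 27 lower, with a median log2 fold change of −0.00 against −0.02 for all 20143 genes. The background was dense, as 63.0% of all genes were called, 31.1% higher and 31.9% lower, and 41.5% and 39.1% of the 11410 expressed genes. The share of OXPHOS subunits called was not above that of all genes tested. The summed level in the Thr-starved libraries was 9940, 9835 and 10147 CPM, all below the unstarved ones. Most of that decrease was in complex V, with a mean sum of 4742 CPM in unstarved and 4459 CPM in Thr-starved libraries. The like means were 2107 and 2147 CPM for complex I and 553 and 562 CPM for complex II. They were 1059 and 1056 CPM for complex III and 1798 and 1750 CPM for complex IV. Within complex V, the 5 genes of the catalytic head (Atp5a1, Atp5b, Atp5c1, Atp5d and Atp5e) had mean sums of 3335 and 3078 CPM. Atp5b, the highest nuclear subunit per kilobase of transcript, was at 994 CPM per kb in unstarved and 907 CPM per kb in Thr-starved libraries. Complex I had 9 subunits called higher and 7 lower of 36, complex II 1 and 1 of 4, complex III 4 and 3 of 9, complex IV 3 and 8 of 14, and complex V 3 and 8 of 16. Medians were 0.01, 0.02, 0.02, −0.09 and −0.06 in that order. The SD of the log2 fold changes was 0.23 over the 79 subunits, against 0.57 over the 11410 expressed genes.

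Among all nuclear subunits Atp5k fell most under Thr starvation. Atp5k (chr5:108433244-108434448) encodes subunit e of complex V, a small membrane subunit involved in pairing of the enzyme. Its level was 49.5, 52.1 and 51.6 CPM in the unstarved, 24.3, 24.6 and 27.8 CPM in the Thr-starved and 37.6, 41.4 and 41.0 CPM in the Cys-starved libraries. The 3 groups did not overlap, and the Cys-starved libraries lay between the others. The log2 fold change was −0.99 (SE 0.05, adjusted p = 4e-14) under Thr and −0.35 (SE 0.05, adjusted p = 2.7e-06) under Cys starvation by edgeR, and the direct difference between the starvations was −0.64 (SE 0.05, adjusted p = 1.3e-10). Of the 20143 genes, 66.5% had no overlap between Thr-starved and unstarved, 46.4% between Cys-starved and unstarved and 65.8% between Thr-starved and Cys-starved libraries. Among the 79 nuclear subunits 49, 61 and 60 had none.

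The other subunits of complex V included some that fell, some that rose and 5 that were not called. Atp5c1 encodes the gamma subunit, the central stalk that turns inside the catalytic head, and its log2 fold change under Thr starvation was −0.61 (SE 0.02, adjusted p = 1.2e-15, edgeR), a value named after it was seen. Of the 5 genes of the catalytic head (Atp5a1, Atp5b, Atp5c1, Atp5d and Atp5e), 3 were called lower under Thr and 5 under Cys starvation. Atp5f1, which encodes subunit b of the peripheral stalk, had the highest fold change of its complex under Thr starvation, with 246, 246 and 244 CPM in unstarved, 294, 278 and 293 CPM in Thr-starved and 227, 229 and 225 CPM in Cys-starved libraries. All Thr-starved libraries were above and all Cys-starved libraries below the unstarved ones. Its log2 fold change was 0.24 (adjusted p = 1e-08) under Thr and −0.11 (adjusted p = 0.00088) under Cys starvation. Exons of Atp5f1 overlap Wdr77 on the opposite strand, and whether strand was used in counting is not given in the sources used here. A copy elsewhere in the genome, of near-identical sequence, covers 43.4% of the Atp5f1 transcript.

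The 3 genes for subunit c, whose identical mature proteins form the rotating ring of complex V, did not move as a set under Thr starvation. Atp5g1 was lower, from 156, 159 and 165 to 125, 127 and 128 CPM (log2 fold change −0.34, adjusted p = 9.6e-11), and the groups did not overlap. Atp5g2 was higher by 0.08 on the log2 scale (adjusted p = 0.0096, edgeR), and not called without the first unstarved library (0.06, adjusted p = 0.065). Atp5g3, with 238, 239 and 236 CPM in unstarved and 232, 229 and 246 CPM in Thr-starved libraries, was not called. Under Cys starvation Atp5g2 and Atp5g3 were each lower by −0.10 (adjusted p = 0.0027 and 0.0061), though neither passed once GC and length trends were removed, and Atp5g1 was at −0.01 (adjusted p = 0.77), which turned to 0.08 (adjusted p = 0.013) with these trends removed. Per kilobase of transcript Atp5g2 had the highest level of the 3 in unstarved cells (368 ± 12.6 CPM per kb, SD, n = 3), then Atp5g3 (332 ± 2.50) and Atp5g1 (268 ± 7.52). Copies with near-identical sequence cover 100% of the transcript of Atp5g2 and 69% of that of Atp5g1, so reads of the genes and copies may be mixed.

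Complex I held the widest set of nuclear subunits, and its extremes were accessory subunits. Ndufa13 (chr8:69894180-69902558), also known as a cell death regulator under the name GRIM-19, had 65.2, 65.9 and 63.8 CPM in unstarved, 37.3, 40.7 and 38.5 CPM in Thr-starved and 61.1, 62.3 and 63.5 CPM in Cys-starved libraries. The Thr-starved libraries were far below the unstarved ones and the Cys-starved libraries just below them, at −0.74 on the log2 scale (SE 0.04, adjusted p = 2e-14) against −0.06 under Cys starvation (adjusted p = 0.17), and the direct difference was −0.68 (adjusted p = 1.1e-13, edgeR). Exons of Ndufa13 overlap Tssk6 on the opposite strand.

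At the other end of complex I, Ndufs3, a core subunit of the matrix arm named after its values were seen, had 56.2, 56.6 and 54.6 CPM in unstarved, 76.5, 70.4 and 72.7 CPM in Thr-starved and 61.2, 59.5 and 55.4 CPM in Cys-starved libraries. Only its Thr-starved libraries stood clear of the unstarved ones (log2 fold change 0.39, SE 0.04, adjusted p = 5.2e-09). A near-identical copy covers 75.7% of the Ndufs3 transcript, and exons of Ndufs3 overlap Kbtbd4 on the opposite strand. Ndufb11, a membrane arm subunit, rose from 45.7, 46.7 and 46.7 CPM to 59.3, 60.7 and 63.2 CPM with Thr starvation. Cys-starved libraries, at 47.0, 45.3 and 47.5 CPM, overlapped the unstarved ones. The log2 fold change was 0.40 (SE 0.03, adjusted p = 7.1e-10) under Thr and 0.01 (SE 0.03, adjusted p = 0.91) under Cys starvation, by edgeR. Its exons overlap Rbm10 on the opposite strand. Ndufb9 had the highest fold change of complex I under Cys starvation, 0.08, which was not called (adjusted p = 0.1), and 0.26 under Thr starvation (adjusted p = 1e-06). After removal of GC and length trends the Cys value of Ndufb9 was 0.15 (adjusted p = 0.0013), and its exons overlap Gm49356 on the same strand. Ndufb10 had the lowest value under Cys starvation, −0.23 (adjusted p = 1.4e-05), and a like value under Thr starvation, −0.22 (adjusted p = 8e-06). Its direct difference was 0.01 (SE 0.03, adjusted p = 0.83), which does not show that the starvations act alike.

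**Figure D2:**
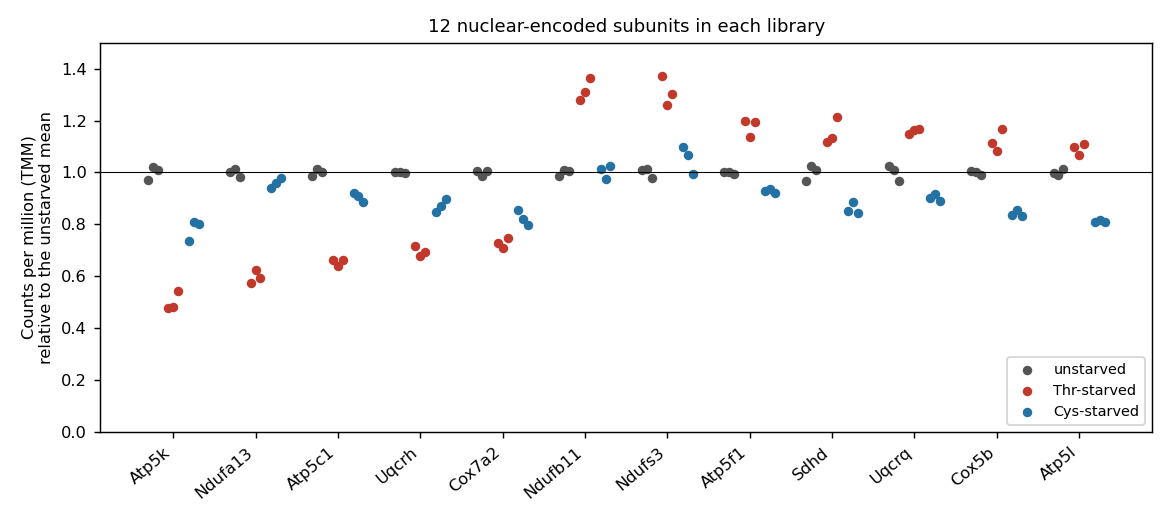
Level of 12 nuclear-encoded subunit mRNAs in each library, divided by the gene's mean over the 3 unstarved libraries (horizontal line at 1). Points are single libraries, grey for unstarved, red for Thr-starved and blue for Cys-starved. For Atp5k the Thr-starved libraries sit at the bottom with 24.3 to 27.8 CPM, and for Sdhd, Uqcrq, Cox5b and Atp5l the Thr-starved libraries lie above and the Cys-starved libraries below the unstarved ones.

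Complex II, the only assembly of the chain with no mitochondrially encoded subunit, was lower in all 4 mRNAs under Cys starvation. Sdha encodes the flavoprotein with the succinate site and had 274, 282 and 278 CPM in unstarved, 286, 286 and 295 CPM in Thr-starved and 246, 235 and 231 CPM in Cys-starved libraries. Only the Cys-starved libraries lay below the unstarved ones, by −0.23 (SE 0.03, adjusted p = 2.2e-07), and the Thr value of 0.06 was not called (adjusted p = 0.058), though it passed by DESeq2 (adjusted p = 0.028), without the second unstarved library (adjusted p = 0.028) and without the first or the third Cys-starved library (adjusted p = 0.042 and 0.048). Sdhb, the iron-sulfur subunit, was lower in both starvations, from 81.6, 79.6 and 82.6 CPM to 65.9, 69.2 and 65.0 CPM with Thr withdrawal and 72.8, 75.2 and 76.3 CPM with Cys withdrawal. Its direct difference of −0.17 (adjusted p = 9.1e-05, edgeR) puts it lower in Thr-starved cells.

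The membrane anchors of complex II differed from each other. Sdhd rose to 102, 103 and 111 CPM with Thr starvation and fell to 77.6, 80.7 and 76.8 CPM with Cys starvation, from 87.9, 93.5 and 91.8 CPM in unstarved cells. The groups did not overlap, and the direct difference was 0.43 (SE 0.03, adjusted p = 2e-10, edgeR). Sdhc was at −0.03 under Thr (adjusted p = 0.47; −0.07, adjusted p = 0.04, with GC and length trends removed) and −0.08 under Cys starvation (adjusted p = 0.038), and the latter call was lost without any of 4 libraries, the first or second unstarved and the second or the third Cys-starved, with adjusted p from 0.098 to 0.12.

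In complex III, Uqcrh, the hinge protein beside cytochrome c1, fell most under Thr starvation. It had 90.4, 90.6 and 90.1 CPM in unstarved, 64.9, 61.4 and 62.7 CPM in Thr-starved and 76.5, 78.7 and 81.2 CPM in Cys-starved libraries. Unstarved libraries were the highest, Thr-starved the lowest and Cys-starved between them. Uqcrh stood at −0.52 (adjusted p = 8.9e-13) under Thr and at −0.20 (adjusted p = 1.7e-05) under Cys starvation on the log2 scale. Uqcr11, a small subunit, was lowest under Cys starvation at −0.25 (adjusted p = 2.7e-06) and at −0.36 under Thr starvation (adjusted p = 2.6e-09). Uqcrfs1, the Rieske iron-sulfur protein, was lower under Thr (−0.24, adjusted p = 1.2e-06) and had the highest value of the complex under Cys starvation (0.07, adjusted p = 0.1), which became 0.10 (adjusted p = 0.0091) with GC and length trends removed and 0.09 (adjusted p = 0.045) without the third Cys-starved library. The direct difference for Uqcrfs1 was −0.31 (SE 0.03, adjusted p = 2.4e-08, edgeR). Uqcrq, the ubiquinone-binding small subunit, went the other way, with 87.3, 86.0 and 82.5 CPM in unstarved, 98.0, 99.3 and 99.6 CPM in Thr-starved and 76.9, 78.2 and 75.9 CPM in Cys-starved libraries. Its decrease under Cys starvation (−0.15, adjusted p = 0.00028) was lost after removal of GC and length trends (−0.04, adjusted p = 0.31). Uqcrq differed between the starvations by 0.36 (SE 0.03, adjusted p = 1.7e-10).

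Complex IV has subunits with alternative isoforms, of which tissues such as heart, lung and testis use particular forms. Per kilobase of transcript, unstarved ES cells held Cox4i1 at 613 ± 4.84 CPM per kb (SD, n = 3) against 0.357 for Cox4i2, Cox6a1 at 201 ± 7.34 against 0.213 for Cox6a2, and Cox6b1 at 171 ± 1.76 against 27.7 ± 3.61 for the testis form Cox6b2. Cox7a2 was at 138 ± 1.41, Cox7a2l, a factor for supercomplexes, at 75.8 ± 0.827 and the muscle form Cox7a1 at 5.00 ± 0.192. Ndufa4, now counted with complex IV, was at 293 ± 1.76, against 0.377 for Ndufa4l2. In each of these pairs the ubiquitous form was the higher, by far more than the spread between replicates.

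Isoforms of complex IV moved in both directions under Thr starvation. Cox7a2 was the lowest of complex IV in both starvations, with 91.3, 89.6 and 91.1 CPM in unstarved, 66.0, 64.4 and 67.7 CPM in Thr-starved and 77.4, 74.5 and 72.5 CPM in Cys-starved libraries. Its log2 fold changes were −0.46 (SE 0.03, adjusted p = 1.1e-11) and −0.28 (SE 0.03, adjusted p = 2.1e-07). Cox8a was the highest of the complex under Thr starvation, at 0.18 (adjusted p = 7.8e-06), and fell by 0.13 under Cys starvation (adjusted p = 0.00088), a call that was lost after removal of GC and length trends. Cox5b, on the matrix side, had 118, 117 and 116 CPM in unstarved, 130, 126 and 136 CPM in Thr-starved and 97.5, 100.1 and 97.4 CPM in Cys-starved libraries, a direct difference of 0.41 (SE 0.03, adjusted p = 1.8e-11, edgeR). Near-identical copies cover 50.9% of the Cox5b transcript.

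Cox6a1, Cox6b1 and Ndufa4 were lower under Thr starvation by 0.14 to 0.19 on the log2 scale and Cox4i1 was at 0.03 (adjusted p = 0.15), which became 0.12 (adjusted p = 1.3e-06) with GC and length trends removed. Under Cys starvation Cox4i1 (−0.11), Cox6b1 (−0.14) and Ndufa4 (−0.15) were called lower, and Cox6a1 (−0.06, adjusted p = 0.1) and Cox7a2l (−0.06, adjusted p = 0.19) were not. The call of Cox6b1 was lost after removal of GC and length trends (−0.05, adjusted p = 0.2), whereas Cox6a1 was called without the first unstarved library (−0.09, adjusted p = 0.038), and Cox6a1 and Cox7a2l were called with the deposited size factors (adjusted p = 0.0072 and 0.023). Cox7a2l was higher under Thr starvation by 0.09 (adjusted p = 0.019), and that call was lost without the first unstarved library or without the second or the third Thr-starved library, with adjusted p from 0.051 to 0.11, and after removal of GC and length trends (adjusted p = 0.063). Cox6b2 was lower under Thr starvation by −0.27 (SE 0.08, adjusted p = 0.0057), a call lost without the third unstarved library, where it stood at 14.8 against 12.1 and 11.7 CPM (−0.16, adjusted p = 0.072). Cox7a1, at 1.40 to 2.22 CPM in all libraries, was not called.

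Set against each other, more nuclear subunits were higher in Thr-starved than in Cys-starved cells than the reverse. In the direct test of Thr-starved against Cys-starved cells, 48 of 79 were higher and 15 lower, where 30.4% of all genes were called higher and 31.6% lower, 62.0% in all, and 43.7% and 36.9% of the 11410 expressed genes, so that the share called in either direction was like that of expressed genes. The median difference was 0.11 on the log2 scale, against −0.02 for all genes. Complex I contributed 25 of 36 that were higher, complex II 2 of 4, complex III 6 of 9, complex IV 6 of 14 and complex V 9 of 16. Both comparisons with unstarved cells use the same 3 unstarved libraries, so that they are not independent, and the direct test does not use these libraries in its contrast. Atp5l, subunit g of complex V, had the highest direct difference of its complex, 0.43 (SE 0.03, adjusted p = 9.1e-12), and Atp5k the lowest, −0.64. Atp5l had 76.4, 76.1 and 77.6 CPM in unstarved, 84.2, 81.8 and 85.2 CPM in Thr-starved and 62.2, 62.5 and 62.1 CPM in Cys-starved libraries. Near-identical copies cover 57.4% of the Atp5l transcript, and the copy Gm10221 held 44546 counts beside 39341 for Atp5l. Reads of the gene and its copies may be mixed.

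The mitochondrially encoded mRNAs varied between replicates in a way that the nuclear ones did not. Their summed level was 7438, 4346 and 5924 CPM in the 3 unstarved, 7197, 6934 and 5374 CPM in the Thr-starved and 5092, 5281 and 5671 CPM in the Cys-starved libraries, and the groups overlapped. The highest unstarved library was 1.71 times the lowest, against 1.01 times for the sum of the nuclear subunits. All 13 mRNAs were highest in the first and lowest in the second unstarved library. The median coefficient of variation in unstarved libraries was 28.1% over the 13 mitochondrial and 1.72% over the 79 nuclear mRNAs. Mitochondrial ribosomal RNA moved with these differences, at 0.0256%, 0.0149% and 0.0197% of counts in the 3 unstarved libraries, and its part in them was not tested.

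**Figure D3:**
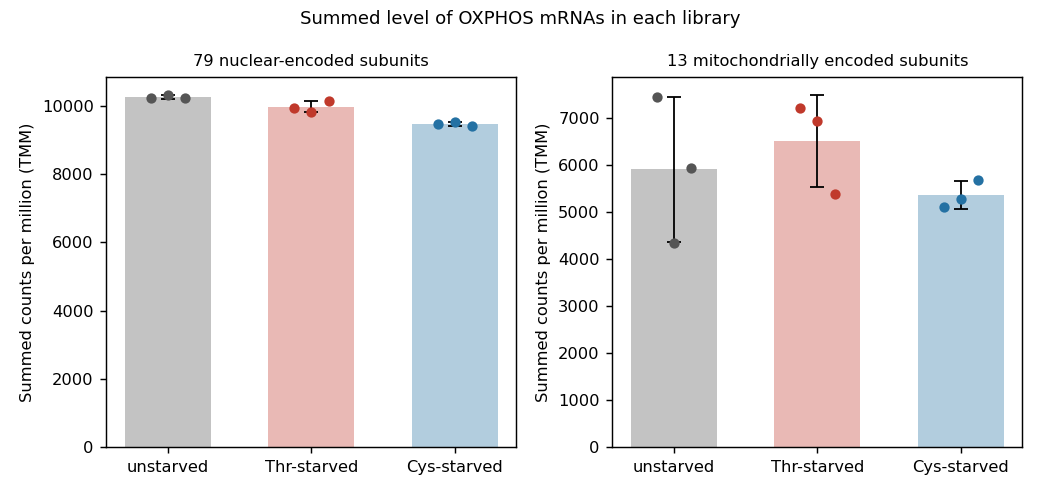
Summed CPM of the 79 nuclear-encoded (left) and 13 mitochondrially encoded (right) subunit mRNAs in each group. Bars are means, error bars SD (n = 3) and points single libraries. The Cys-starved libraries, at 9406 to 9538 CPM, lie below the unstarved ones on the left, whereas on the right the unstarved libraries span 4346 to 7438 CPM and enclose the Cys-starved ones.

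Against this spread few mitochondrial mRNAs were called. Under Thr starvation 3 of 13 were higher and 2 lower, with a median log2 fold change of 0.13, beside 31.1% higher and 31.9% lower of all genes tested. Under Cys starvation 0 were higher and 2 lower, with a median of −0.13, beside 17.5% and 18.8% of all genes tested. DESeq2 called 1 lower and 0 higher in each of these comparisons. With GC and length trends removed 0 were higher and 3 lower in each. Leaving out the first or the second unstarved library decided the outcome. Without the first, 9 were called higher and 1 lower under Thr starvation, with a median of 0.33, and 1 lower under Cys starvation, with a median of 0.07. Without the second, 1 was higher and 4 lower under Thr starvation, with a median of −0.01, and 10 were lower under Cys starvation, with a median of −0.35. These 2 fits called 12096 and 12098 of all 20143 genes under Thr starvation, and 6626 and 6588 under Cys starvation. Without the third Thr-starved library 7 were called higher and 1 lower under Thr starvation, with a median of 0.27. Without the first or the second Thr-starved library 1 was called higher in each case, with a median of 0.07 or 0.10.

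The median nuclear change minus the median mitochondrial change was −0.14 under Thr starvation and 0.00 under Cys starvation, and −0.15 in the direct comparison. The starvation values were not steady, since leaving out single libraries gave −0.33 (without the first unstarved) to 0.01 (without the second) for Thr starvation and −0.20 to 0.22 for Cys starvation. Against unstarved cells a difference of this size between the genomes was therefore not detectable with these libraries. The direct value stayed negative with each library left out, from −0.26 (without the third Thr-starved) to −0.07 (without the first Thr-starved). With GC and length trends removed all 3 lay between −0.00 and 0.03.

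The mRNA of mt-Nd3 stood apart from this variation. It encodes a core membrane subunit of complex I (GRCm38, MT:9459-9806, plus strand) and had 155, 139 and 139 CPM in unstarved, 97.03, 91.0 and 94.1 CPM in Thr-starved and 111, 117 and 109 CPM in Cys-starved libraries. The groups did not overlap, with Thr-starved libraries lowest. The log2 fold change was −0.62 (SE 0.04, adjusted p = 1.9e-12) under Thr starvation and −0.37 (SE 0.04, adjusted p = 6.7e-08) under Cys starvation, and the direct difference was −0.25 (SE 0.04, adjusted p = 5.3e-06), by edgeR. mt-Nd3 was the only one of the 13 whose unstarved libraries all lay above, or all below, those of a starved group. A near-identical copy in the nuclear genome covers 99.1% of the mt-Nd3 transcript, so reads of the gene and its copy may be mixed.

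Other mitochondrial calls were lost under some of the alternatives. mt-Nd1, another core subunit of complex I, had 733, 420 and 576 CPM in unstarved, 522, 504 and 389 CPM in Thr-starved and 423, 438 and 455 CPM in Cys-starved libraries, and its calls (−0.29, adjusted p = 0.036, and −0.39, adjusted p = 0.011) were lost without the first unstarved library (adjusted p = 0.54 and 0.17). The call under Thr starvation was also lost without the third unstarved or the third Thr-starved library (adjusted p = 0.071 and 0.21). mt-Co1, the catalytic subunit of complex IV, was higher under Thr starvation by 0.41 (SE 0.16, adjusted p = 0.037), with 1139, 549 and 837 CPM against 1289, 1230 and 827 CPM, and was not called without the second or the third unstarved or the first or second Thr-starved library (adjusted p from 0.08 to 0.25) or after removal of GC and length trends (0.22, adjusted p = 0.21). mt-Nd6, the only mRNA of the set on the other strand, was higher by 0.34 (adjusted p = 0.046), a call lost without the second unstarved, the first or second Thr-starved or the second Cys-starved library (adjusted p from 0.053 to 0.34) and after removal of GC and length trends (0.22, adjusted p = 0.12). mt-Co3, a core subunit of complex IV, was higher by 0.22 (SE 0.06, adjusted p = 0.0026), with 1459, 1092 and 1292 CPM in unstarved and 1555, 1542 and 1381 CPM in Thr-starved libraries, which overlap. That call held with each library left out and was lost with DESeq2 (adjusted p = 0.054) and after removal of GC and length trends (0.09, adjusted p = 0.059).

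In the direct comparison mt-Co1, mt-Co3, mt-Atp6 and mt-Atp8 were higher and mt-Nd3 was lower in Thr-starved cells. mt-Co3 had 1231, 1252 and 1231 CPM in Cys-starved libraries, all below the Thr-starved ones (0.27, SE 0.06, adjusted p = 0.00042). mt-Atp6, the proton channel subunit of complex V, had 1336, 1278 and 1063 CPM in Thr-starved and 989, 1023 and 1060 CPM in Cys-starved libraries (0.26, SE 0.10, adjusted p = 0.024). mt-Atp8, which shares bases with it, was at 0.26 (SE 0.09, adjusted p = 0.021). The calls of mt-Atp6 and mt-Atp8 were lost without the first or second library of either group, with adjusted p from 0.055 to 0.099, and after removal of GC and length trends (0.11, adjusted p = 0.21, and 0.05, adjusted p = 0.6). DESeq2 called 1 of the 4 higher, and leaving out single libraries gave 2 to 9 mRNAs called higher, with 2 without the first or second library of either starved group and 9 without the third Thr-starved library. mt-Co2, mt-Nd2, mt-Nd4, mt-Nd4l, mt-Nd5 and mt-Cytb were called in none of the 3 comparisons by the edgeR fit of all 9 libraries, with log2 fold changes from −0.25 to 0.34. An edgeR fit of only the 2 starved groups called mt-Co2 (0.35, adjusted p = 0.0035), mt-Nd4 (0.33, adjusted p = 0.015) and mt-Nd4l (0.29, adjusted p = 0.026) higher in Thr-starved cells. That fit called 7 of the 13 higher and 1 lower, beside 6183 higher and 6280 lower of 20140 genes. With GC and length trends removed mt-Nd2 was called lower under Thr (−0.35, adjusted p = 0.0047) and Cys starvation (−0.28, adjusted p = 0.04), as it was without the second unstarved library (−0.37, adjusted p = 0.00079, and −0.45, adjusted p = 0.00031).

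**Figure D4:**
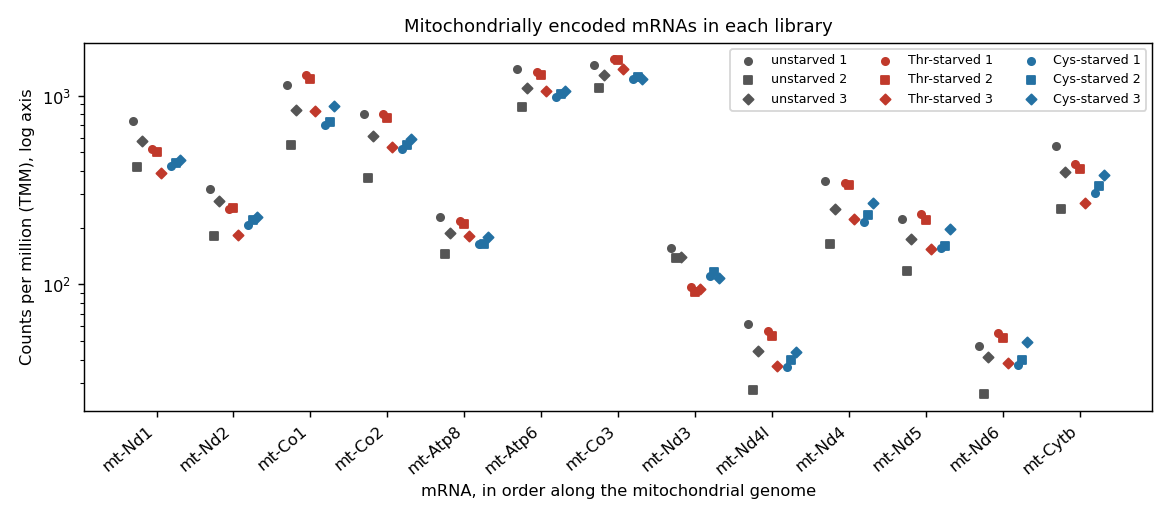
CPM (log axis) of the 13 mitochondrially encoded mRNAs in each library, in their order along the mitochondrial genome. Grey, red and blue are unstarved, Thr-starved and Cys-starved, and circles, squares and diamonds replicates 1 to 3. For 12 of the 13 mRNAs the unstarved libraries overlap both starved groups, and for mt-Nd3 the unstarved libraries, at 139 to 155 CPM, lie above all starved ones.

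The make-up of the mitochondrial mRNA pool differed between groups for some mRNAs. The share of mt-Nd1 in the counts of the 13 mRNAs was 9.85%, 9.68% and 9.72% in unstarved, 7.25%, 7.27% and 7.24% in Thr-starved and 8.30%, 8.30% and 8.02% in Cys-starved libraries. The 3 groups did not overlap, although the level of mt-Nd1 varied 1.74-fold among unstarved libraries. The share of mt-Nd2 was 4.30%, 4.15% and 4.65% in unstarved, 3.51%, 3.65% and 3.42% in Thr-starved and 4.08%, 4.15% and 4.01% in Cys-starved libraries, and that of mt-Nd3 fell from 2.08% to 3.19% in unstarved to 1.31% to 1.75% in Thr-starved libraries. mt-Co1 took 15.3%, 12.6% and 14.1% in unstarved and 17.9%, 17.7% and 15.4% in Thr-starved libraries. In all, 2 shares were higher and 3 lower in every Thr-starved than in every unstarved library, and 8 overlapped. For Cys starvation 2 were higher (mt-Nd5 and mt-Nd6) and 2 lower (mt-Nd1 and mt-Nd2). The gap for mt-Nd2 was very narrow, between 4.150% in the second Cys-starved and 4.153% in the second unstarved library. The shares depend on one another as parts of a sum, and no test was made of them.

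Copies of mitochondrial sequence in the nuclear genome shared the counts. Of the 13 genes, 7 have an annotated nuclear pseudogene that matches at least 50% of the transcript at 97% identity or more. The row of such a copy of mt-Co2 held 320984 counts over the 9 libraries beside 320878 for mt-Co2 itself, that of mt-Co3 714527 beside 706898, that of mt-Nd3 62663 beside 62237 and that of mt-Nd4l 23409 beside 23348. In each library the copy held 1.00 to 1.01 times the counts of these 4 genes. How reads that match several places were counted is not given in the sources used here. mt-Nd1, mt-Nd2, mt-Nd5, mt-Nd6 and mt-Cytb had no such copy, and 18 of the 79 nuclear subunits had a copy of any length. Among these 18 were Uqcr11 (38.4% of the transcript) and Cox7a2l (31.2%). Over the 61 nuclear subunits without a copy the median under Cys starvation was −0.13, with 44 called lower and 0 higher, and under Thr starvation −0.02, with 11 higher and 24 lower. Over the 51 that share no exon with another gene the medians were −0.14 and −0.02. Of these, 37 were called lower and 0 higher under Cys starvation, and 8 higher and 21 lower under Thr starvation. Of all genes tested, 18.8% were lower and 17.5% higher under Cys, and 31.1% higher and 31.9% lower under Thr starvation. The highest value under Thr starvation was 0.21 over these 51, against 0.40 over all 79.

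The 9 assembly and accessory factors by the symbol rule had 4 called higher and 3 lower under Thr starvation, beside 31.1% higher and 31.9% lower of all genes tested. Ndufaf5, an assembly factor of complex I, rose from 13.8, 13.8 and 13.3 CPM to 21.98, 21.9 and 22.5 CPM with Thr starvation and was at 13.4, 13.6 and 13.8 CPM with Cys starvation. Its log2 fold change was 0.70 (SE 0.05, adjusted p = 2.4e-11) under Thr and −0.01 (SE 0.05, adjusted p = 0.94) under Cys starvation, by edgeR. Ndufaf6 was higher under Thr starvation by 0.26 (adjusted p = 0.0013), Ndufaf7, a methyltransferase of a complex I subunit, lower by −0.39 (adjusted p = 4.7e-07) and Ndufaf1 lower by −0.31 (adjusted p = 0.00041). Under Cys starvation Ndufaf3 was higher by 0.32 (adjusted p = 0.00057), Ndufaf2 lower by −0.22 (adjusted p = 0.005), and 7 of the 9 were not called, with Ndufaf7 at 0.11 (adjusted p = 0.07) and Ndufaf6 at −0.15 (adjusted p = 0.088). Removal of GC and length trends ended the call of Ndufaf2 (−0.14, adjusted p = 0.058) and made one of Ndufaf7 (0.13, adjusted p = 0.038), which was also called with at least 10 counts in every library (adjusted p = 0.042). Ndufaf6 was called with the deposited size factors (−0.19, adjusted p = 0.027). Ndufaf3 overlaps Impdh2 on the opposite strand.

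A list of 45 further assembly factors, outside the rule, was followed as well. Of the 43 in the table, 21 were called higher and 12 lower under Thr starvation, with a median log2 fold change of 0.24, beside 41.5% higher and 39.1% lower among expressed genes. Tmem126b and Tmem186, which act in the assembly of the membrane arm of complex I, were higher by 1.69 (SE 0.05, adjusted p = 5.2e-18) and 1.53 (SE 0.04, adjusted p = 1.3e-19). Cox11, a copper carrier for complex IV, was higher by 0.83 (adjusted p = 9e-11) and Cox19, which has a role in the same copper pathway, lower by −0.85 (adjusted p = 8.5e-10). Under Cys starvation 11 were higher and 3 lower, with a median of 0.06, beside 24.6% higher and 30.5% lower among expressed genes. Among them were Coa4 at 0.73 (adjusted p = 2e-06), Tmem186 at 0.43 (adjusted p = 7.4e-09), Tmem70, a factor for complex V, at 0.37 (adjusted p = 1.2e-05) and Pet100 at −0.34 (adjusted p = 0.0012). In the direct comparison 21 were higher and 13 lower in Thr-starved cells, beside 43.7% higher and 36.9% lower among expressed genes.

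Of the genes for expression of the mitochondrial genome, 42 of 43 were in the table, and under Thr starvation 15 were higher and 15 lower, with a median of 0.03, beside 41.5% and 39.1% of expressed genes. Trmt10c, part of the RNase that frees mitochondrial tRNAs, was higher by 0.70 (adjusted p = 1.5e-13), and Ptcd1 (−0.81, adjusted p = 3.8e-12), Ptcd2 (−0.67, adjusted p = 2.4e-11) and the topoisomerase Top1mt (−0.64, adjusted p = 7.5e-07) were lower. Under Cys starvation 7 were higher and 15 lower, with a median of 0.01, beside 24.6% and 30.5%. Tfam, which packages and transcribes mitochondrial DNA, was higher by 0.34 (SE 0.02, adjusted p = 4.3e-10), Mgme1, a mitochondrial nuclease, by 0.33 (adjusted p = 7.3e-09) and Mtif3 by 0.32 (adjusted p = 0.00024), and Mtrf1, a translation release factor, was lower by −0.38 (adjusted p = 3e-05).

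The 30 genes for electron carriers and ATP exchange had 8 higher and 8 lower under Thr starvation (median 0.00), a share below the 63.0% of all genes called. Under Cys starvation 4 were higher and 9 lower (median 0.02), beside 17.5% and 18.8% of all genes and 24.6% and 30.5% of expressed genes. Slc25a3, the phosphate carrier (−0.58, adjusted p = 7.8e-16), and the channel Vdac1 (−0.52, adjusted p = 2e-15) were lower under Thr starvation. Hccs, which attaches heme to cytochrome c (0.52, adjusted p = 1.3e-10), and Coq2 of ubiquinone synthesis (0.51, adjusted p = 6.5e-10) were higher. Under Cys starvation Vdac3 (0.23, adjusted p = 2.8e-07) and Coq5 (0.18, adjusted p = 0.0026) were higher, and Etfa (−0.19, adjusted p = 9.6e-05) and the ADP/ATP carrier Slc25a4 (−0.19, adjusted p = 2.5e-06) were lower.

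Of the regulators of nuclear OXPHOS genes, 18 of 20 were in the table. Under Thr starvation 10 were higher and 6 lower (median 0.17), beside 41.5% and 39.1% of expressed genes, and under Cys starvation 4 higher and 7 lower (median −0.07), beside 24.6% and 30.5%. Nrf1 was higher by 0.13 (adjusted p = 0.00046) and 0.08 (adjusted p = 0.037) in the respective starvations. Gabpa, the DNA-binding subunit of GABP, was higher under Thr starvation (0.39, adjusted p = 1.7e-11) and at −0.02 under Cys starvation (adjusted p = 0.69), and its exons overlap those of Atp5j on the opposite strand. Gabpb2, a partner of Gabpa, was lower under Cys starvation by −0.34 (adjusted p = 2.2e-09). Pprc1, a coactivator related to Ppargc1a, was lower by −0.67 (SE 0.02, adjusted p = 7.8e-17) under Thr and −0.37 (SE 0.02, adjusted p = 3.6e-11) under Cys starvation. Esrra was lower under Thr starvation (−0.51, adjusted p = 2.9e-06) and at −0.10 under Cys starvation (adjusted p = 0.31), and Myc was lower in both (−1.34, adjusted p = 8.8e-19, and −0.31, adjusted p = 1.5e-07). Creb1 was higher under Thr starvation by 0.43 (adjusted p = 1.1e-10), and Esrrb was the highest of the list under Cys starvation, at 0.26 (adjusted p = 9.2e-10).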

How the data were processed

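Poly(A) RNA of 9 samples, 3 per group, was sequenced on an Illumina NextSeq, with 43 bases read from each end. The sources name FastQC 0.11.7, STAR 2.7.4a, HTSeq, DESeq 1.30.1 and R 4.0.3. The authors deposited raw counts per gene and a table of normalised values, each a count divided by a size factor (a signal per gene), from which only the size factors were taken. How HTSeq treated strand and reads with several matches is not given in the sources used here. Of all counts between 1 and 20, 67.8% were even. Groups follow the sample titles, since the shared treatment text names other amino acids. The members and lists were chosen with earlier results of these data known.

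Gene symbols and biotypes come from GENCODE M21 (GRCm38). Counts of 20143 genes were fitted with edgeR 4.0.16 (R 4.3.3; TMM scaling, quasi-likelihood F test, all 9 libraries in 1 fit, Benjamini-Hochberg adjustment over all genes), and calls use an adjusted p of 0.05 or less. CPM values use TMM-scaled totals. Levels per kilobase use the principal transcript (APPRIS, then support level, then the shortest). Copies were found with BLAST 2.17.0 at 97% identity over at least 43 bases. On simulated counts with the real means, the fit recovered 90 of 100 genes changed by 0.3 and 100 of 100 changed by 1 on the log2 scale in the comparison of Thr-starved with unstarved libraries, with 16 false calls among 20141 genes. The simulated counts were independent, and only these genes, all averaging 5 CPM or more, were changed. In the real comparison 63.0% of genes were called, so recovery and false calls may differ there. The chi-square per gene between 2 libraries of a group was 1.98 to 2.13, computed as if every count were independent. As 67.8% of counts from 1 to 20 were even, counts may not be independent. This value therefore cannot tell whether replicates differed beyond sampling noise.

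Named genes were all mitochondrial mRNAs, all of complex II, the isoform families, per complex the highest and lowest fold change in each starvation, the 4 subunits called in opposite directions with the largest direct difference, the 2 highest and lowest factors in each starvation, and the 4 largest changes per list. Alternatives were DESeq2 1.42.0, other scalings and filters, 2-group fits, halved counts, a replicate block, each library left out, and, chosen after seeing the data, removal of loess trends (span 0.3) on GC content and length of the transcript.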

Additional observations from a re-analysis of the deposited data

How the results depend on the processing

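The number of OXPHOS members called stayed within 1.5 times its value (59 for Thr, 60 for Cys, 74 for the direct comparison) under every alternative run. The median of the nuclear subunits under Cys starvation (−0.13) moved to −0.17 with the deposited size factors, −0.12 with at least 10 counts in every library and −0.078 with GC and length trends removed, and lay between −0.14 and −0.12 with single libraries left out. Removing these trends gave 0.014 for Thr starvation and, in the direct comparison, 0.079 for nuclear and 0.081 for mitochondrial subunits. In the direct comparison the nuclear median was 0.15 with the deposited size factors and 0.090 to 0.12 with single libraries left out. The mitochondrial medians then ranged from −0.012 to 0.33 (Thr), −0.35 to 0.066 (Cys) and 0.17 to 0.35 (direct). The cause of these shifts was not tested.

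Replicate numbers did not pair the samples (correlations of deviations from −0.244 to 0.106 over 11410 genes). A replicate block gave 57, 59 and 70 members called. It ended the Cys call of Sdhc (−0.079, adjusted p = 0.06), changed no other call among the named genes, and turned mt-Nd5 under Cys starvation to 0.022.

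In 57 cases a named gene changed sign, and only Ndufa4 and Atp5g1 were called after the turn. With GC and length trends removed these were, in the direct comparison, mt-Nd1 (−0.044), mt-Nd2 (−0.076), mt-Cytb (−0.016) and Ndufa4 (−0.11, adjusted p = 0.00017), under Thr starvation mt-Atp6 (−0.0016), mt-Nd5 (−0.019), Atp5g3 (0.015) and Ndufaf2 (−0.0011), and under Cys starvation Atp5g1 (0.075, adjusted p = 0.013), Cox6a1 (0.013), Atp5g2 (0.0036) and Ndufaf5 (0.032). With at least 10 counts in every library they were Ndufa4 (−0.00087, direct) and Ndufaf5 (0.00051, Cys), and with the deposited size factors Ndufb11 (−0.035, Cys) and Cox6b1 (0.031, direct).

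With single libraries left out, values under Cys starvation that turned ranged from −0.28 to 0.055 for mt-Atp6, −0.31 to 0.016 for mt-Atp8, −0.36 to 0.15 for mt-Co1, −0.35 to 0.18 for mt-Co2, −0.15 to 0.052 for mt-Co3, −0.47 to 0.066 for mt-Cytb, −0.34 to 0.20 for mt-Nd4, −0.41 to 0.16 for mt-Nd4l, −0.22 to 0.22 for mt-Nd5, −0.071 to 0.32 for mt-Nd6, −0.032 to 0.011 for Atp5g1, −0.10 to 0.031 for Ndufaf1, −0.024 to 0.0046 for Ndufaf5 and −0.0075 to 0.027 for Ndufb11. Under Thr starvation they ranged from −0.012 to 0.32 for mt-Atp6, −0.041 to 0.28 for mt-Atp8, −0.0044 to 0.53 for mt-Co2, −0.33 to 0.20 for mt-Cytb, −0.37 to 0.013 for mt-Nd2, −0.0035 to 0.53 for mt-Nd4, −0.12 to 0.45 for mt-Nd4l, −0.043 to 0.0096 for Atp5g3, −0.050 to 0.047 for Ndufaf2 and −0.047 to 0.0045 for Sdhc. In the direct comparison they ranged from −0.0038 to 0.21 for mt-Nd2, −0.041 to 0.0049 for Cox6b1, −0.017 to 0.032 for Ndufa4 and −0.011 to 0.024 for Ndufb10.

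The mitochondrial mRNAs had a median SE of 0.14 on the log2 scale against 0.03 for the nuclear subunits, which limits what 3 libraries per group can show for them. Reads shared between a gene and its near-identical copies cannot be told apart.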
